A study of Mus musculus with 12 samples.

Results

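Lung cancer cells labelled as knockout for the transcriptional repressor BACH1 were compared with control-guide cells, with FEM1B targeted by siRNA in both. Cells labelled sgBACH1_siFEM1B were KP cells, a mouse lung adenocarcinoma line whose labelled genotype includes Trp53flox/flox, in which Bach1 was knocked out with CRISPR/Cas9 and Fem1b was targeted by siRNA for 48 hours. Cells labelled sgCTRL_siFEM1B carried a control guide and received the same siRNA for the same time, so that the genotype of the line and the FEM1B siRNA were shared by both groups. Each group had 3 libraries, called biological replicates in the design text. P-values set a group difference against the spread between replicate libraries, estimated from all 12 libraries of the series. 1 knockout and 1 control line are named. Whether either was a clone or a pool is not given in the sources used here, and BACH1 loss and any other difference between both lines cannot be told apart. The comparison used 6 of the 12 libraries of the series. The other 6 libraries, from sgBACH1_siCTRL and sgCTRL_siCTRL cells with a control siRNA, added to the estimate of the spread and gave the knockout difference without FEM1B siRNA. Of 24421 genes in the table, the 13312 with at least 10 counts in at least 3 of the 12 libraries were tested.

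BACH1 binds DNA together with small MAF proteins and holds down genes of heme breakdown, iron storage and glutathione synthesis. Heme releases BACH1 from DNA, and the activator NRF2 uses many of the same sites. FEM1B picks the substrates of a ubiquitin ligase built on CUL2, which marks proteins for destruction, and FNIP1 is a known substrate. Ferroptosis is an iron-dependent cell death by lipid peroxidation, held back by cystine import, glutathione and GPX4. KP cells model lung adenocarcinoma with loss of p53.

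Total counts per library were 16539168 to 20474719 in sgBACH1_siFEM1B cells and 18530571 to 22196999 in sgCTRL_siFEM1B cells. In a principal component analysis of log2 CPM (counts scaled to the total of each library and its TMM factor), a component with 67.1% of the variance separated the guides and the next, with 16.9%, the siRNAs. In a chi-square comparison of counts, sgBACH1_siFEM1B replicate 2 stood apart from the other libraries of its group, with 9.88 and 8.57 per degree of freedom against 3.05 between replicates 1 and 3. In sgCTRL_siFEM1B cells replicate 3 stood apart, with 14.1 and 8.62 against 6.22 between replicates 1 and 2. Bach1 was measured at 40.0, 39.3 and 40.5 CPM in sgBACH1_siFEM1B cells, against 42.3, 44.1 and 37.7 CPM in sgCTRL_siFEM1B cells. The groups overlapped and were not called (-0.053 ± 0.075 on the log2 scale, adjusted p = 0.576). A transcript count does not report on the protein or on small deletions by Cas9. Fem1b stood at 46.2, 54.5 and 46.4 CPM in sgBACH1_siFEM1B cells, against 43.0, 58.0 and 54.2 CPM in sgCTRL_siFEM1B cells, both below the means of 139 CPM in sgBACH1_siCTRL and 163 CPM in sgCTRL_siCTRL cells. The difference between the guides under FEM1B siRNA was not called (-0.075 ± 0.087, adjusted p = 0.485), but was called at -0.19 (adjusted p = 0.0326) without sgCTRL_siFEM1B replicate 1 and at -0.37 (adjusted p = 0.00158) with the median of its chromosome removed. Epithelial markers summed to 7815 to 7962 CPM in sgBACH1_siFEM1B and 8577 to 9251 CPM in sgCTRL_siFEM1B cells. They moved in both directions: of 7 measured, 2 rose, among them Cdh1, and 3 fell, among them Krt7, with a median log2 fold change of 0.0074. Of 9 alveolar type 2 markers 3 were measured, and none of these was called. The 9 summed to 191 to 198 CPM in sgBACH1_siFEM1B and 173 to 193 CPM in sgCTRL_siFEM1B cells. Among the defining surfactant genes, Sftpa1 and Sftpd were at 0 in all 6 libraries, as was the lung factor Nkx2-1. Sftpb and Sftpc were not at 0 but did not pass the count filter. Leukocyte markers summed to 8.57 to 11.3 CPM in sgBACH1_siFEM1B and 21.5 to 30.3 CPM in sgCTRL_siFEM1B cells. Most of that was Cd68, and the leukocyte markers Adgre1, Cd3e and Tyrobp were at 0. None of 4 airway markers passed the count filter. Of 6 endothelial markers 1 did, and it fell; the markers summed to 0.432 to 0.604 CPM in sgBACH1_siFEM1B and 0.868 to 2.14 CPM in sgCTRL_siFEM1B cells. In bulk RNA, fewer cells of a type and less RNA per cell cannot be told apart.

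Under FEM1B siRNA the knockout line differed from the control line in 7255 genes, or 54.5% of those tested. At a Benjamini-Hochberg adjusted p under 0.05 (edgeR's quasi-likelihood test), 3745 genes were higher and 3510 lower in sgBACH1_siFEM1B cells, which is 28.1% and 26.4% of all genes tested. These percentages are the background for every gene list. The median absolute log2 fold change was 0.27, and 776 called genes were at least 2-fold higher (5.83%) and 553 at least 2-fold lower (4.15%). Between 6402 and 7270 genes were called with any 1 of the 12 libraries left out. With control siRNA, in libraries that the first comparison does not contain but from the same pair of lines, 3219 genes were higher (24.2%) and 3489 lower (26.2%). Of the genes higher under FEM1B siRNA, 66.2% were also higher under control siRNA, and these made up 77.0% of the genes higher there. Of the lower genes, 70.5% were also lower under control siRNA, where they made up 70.9% of the lower genes.

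Whether the knockout difference itself depended on the siRNA was tested as an interaction, the log2 fold change under FEM1B siRNA minus that under control siRNA. It was called for 805 genes (6.05%), with 459 in which the knockout stood higher under FEM1B siRNA than under control siRNA (3.45%) and 346 in which it stood lower (2.60%). The split was 371 higher and 441 lower when DESeq2's size factors replaced TMM. For 69 genes the knockout was called in opposite directions under each siRNA, and the interaction was called for all 69. That adds little, since the interaction is the difference of the very changes by which these genes were picked. Of the 1220 genes higher under FEM1B siRNA but not called under control siRNA, 167 had a called interaction, as had 118 of the 1011 lower ones. The number of called interactions depended on single libraries. It was 1863 without sgBACH1_siFEM1B replicate 2, 297 without replicate 1 and 300.0 without replicate 3 of that group, 305 and 306 without sgBACH1_siCTRL replicate 1 or 3, 381 without sgCTRL_siCTRL replicate 3 and 395 without sgCTRL_siFEM1B replicate 2. Single interactions are named as called below where they held with every library left out in turn, and otherwise the exceptions are given.

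**Figure D1:**
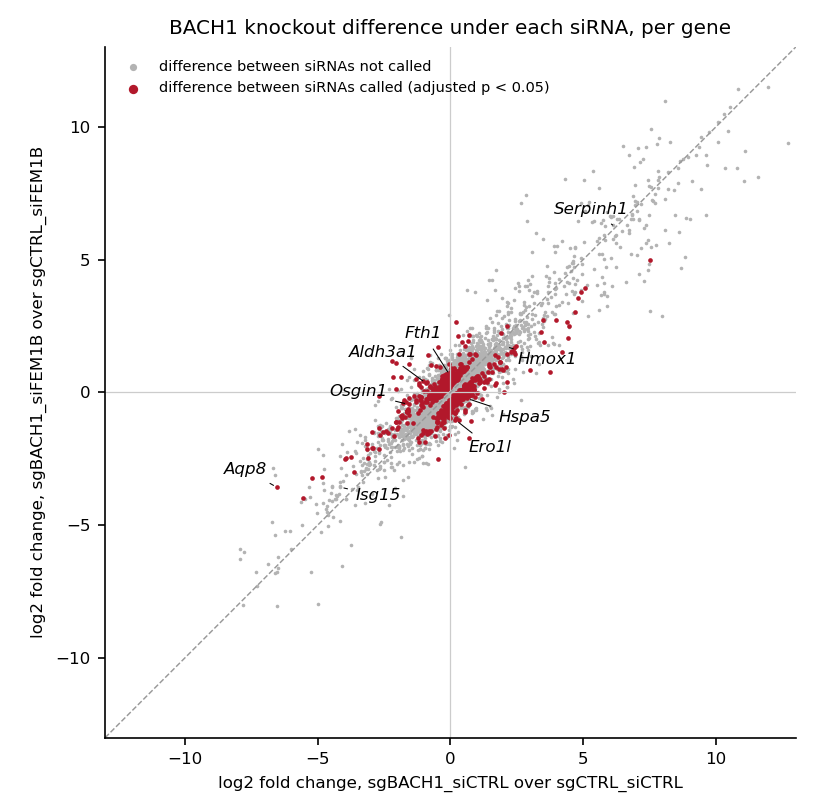
Each point is 1 of 13312 genes, with the log2 fold change of sgBACH1_siFEM1B over sgCTRL_siFEM1B cells on the vertical axis and of sgBACH1_siCTRL over sgCTRL_siCTRL cells on the horizontal axis; red points are the 805 genes with a called interaction. Most genes lie near the dashed line of equal change, Aldh3a1 and Fth1 lie above it, and Ero1l and Hspa5 lie below it.

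The direction of the difference varied with the chromosome a gene lies on. The median log2 fold change was 0.44 on chromosome 19, 0.29 on chromosome 9 and 0.24 on chromosome 14, against -0.25 on chromosome 12 and -0.17 on chromosome 18. On chromosome 19, 68.9% of genes were called higher and 10.3% lower, whereas on chromosome 12 10.4% were higher and 54.3% lower. The medians were nearly the same under control siRNA, and the interaction showed no such spread: the SD of the 20 chromosome medians was 0.164 under FEM1B siRNA, 0.169 under control siRNA and 0.016 for the interaction. Where removing the median of its chromosome ends or makes a named gene's call, or turns or moves a called value by more than 1.5 times, that value is given with the gene.

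**Figure D2:**
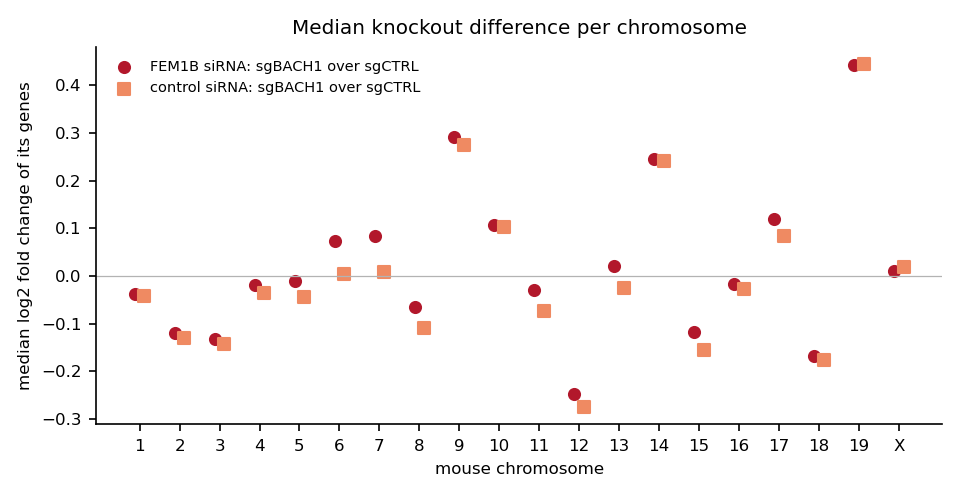
The median log2 fold change of the genes on each of 20 mouse chromosomes is plotted for sgBACH1 over sgCTRL cells, with circles under FEM1B siRNA and squares under control siRNA. Both sets lie close together on every chromosome, highest on chromosome 19 and lowest on chromosome 12.

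Genes described as repressed by BACH1 differed in both directions between the knockout and control lines under FEM1B siRNA. Of 18 measured members, 9 rose and 6 fell. Their median log2 fold change was 0.16, against 0.013 over all genes tested. With the median of each chromosome removed, the median of these members was 0.029. Hmox1, which encodes the heme oxygenase that breaks heme down to biliverdin, carbon monoxide and iron, was measured at 493, 808 and 517 CPM in sgBACH1_siFEM1B cells, against 142, 184 and 240.4 CPM in sgCTRL_siFEM1B cells. Every knockout library lay above every control library, with replicate 2 the highest of the knockout libraries, and the log2 fold change was 1.69 ± 0.16 (adjusted p = 3.3e-08). Under control siRNA the values were 1108, 1081 and 1093 CPM in sgBACH1_siCTRL cells and 242, 258 and 203 CPM in sgCTRL_siCTRL cells, and the interaction of -0.54 ± 0.22 did not pass the test (adjusted p = 0.150). Hebp1, a heme-binding protein gene, averaged 3.32 CPM in sgBACH1_siFEM1B and 0.179 CPM in sgCTRL_siFEM1B cells and rose (4.16 ± 0.34). Slc25a38, the mitochondrial glycine carrier that feeds heme synthesis, rose by 0.69 ± 0.14 on the log2 scale (0.40 with the median of its chromosome removed). The heme-linked transporter genes Abcb6 and Slc48a1 fell (-0.48 ± 0.082 and -0.49 ± 0.054), as did Srxn1, which encodes sulfiredoxin, the repair enzyme of overoxidized peroxiredoxins (-0.80 ± 0.063), and Txnrd1, the cytosolic thioredoxin reductase gene (-0.39 ± 0.050). Nqo1, a quinone reductase gene often used to read NRF2 activity, was near the detection limit at 0.937 CPM in sgBACH1_siFEM1B and 1.46 CPM in sgCTRL_siFEM1B cells and was not called (-0.67 ± 0.32, adjusted p = 0.0846); without sgBACH1_siFEM1B replicate 3 it was called at -0.93 (adjusted p = 0.0385).

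Ferritin heavy chain differed between the guides under FEM1B siRNA, and that difference was itself different from the one under control siRNA. Fth1, the subunit that oxidizes iron for storage, was measured at 3063, 2762 and 2939 CPM in sgBACH1_siFEM1B cells, against 1912, 1789 and 1940.0 CPM in sgCTRL_siFEM1B cells. Under control siRNA it stood at 2806, 2974 and 2819 CPM in sgBACH1_siCTRL cells and 2973, 2964 and 2757 CPM in sgCTRL_siCTRL cells. The guides did not overlap under FEM1B siRNA and overlapped under control siRNA, and the 3 sgCTRL_siFEM1B libraries were the lowest of all 12. The log2 fold change was 0.64 ± 0.053 under FEM1B siRNA (adjusted p = 5.67e-09) and -0.016 ± 0.053 under control siRNA (adjusted p = 0.825), and the interaction was 0.65 ± 0.075 (adjusted p = 5.98e-05). Fth1 lies on chromosome 19, and the value under FEM1B siRNA was 0.19 (adjusted p = 0.00509) with that chromosome's median removed, while the interaction was 0.65. Counts of Fth1 and Ftl1 are uncertain, since both have near-identical processed copies in the genome. Ftl1, the light chain, was measured at 597, 722 and 611 CPM in sgBACH1_siFEM1B cells, against 628, 717 and 938 CPM in sgCTRL_siFEM1B cells, which overlap. Its log2 fold change of -0.24 ± 0.099 (adjusted p = 0.0453) was no longer called without 8 of the 12 libraries in turn, among them sgBACH1_siFEM1B replicates 1 and 3, each sgBACH1_siCTRL library and sgCTRL_siCTRL replicates 2 and 3. It was -0.076 without sgCTRL_siFEM1B replicate 3, which also ended the call, and -0.36 without sgCTRL_siFEM1B replicate 1.

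The other iron genes split as well. Of 17 measured members, 6 rose and 4 fell. Steap3, an endosomal ferric reductase gene, averaged 2.92 CPM in sgBACH1_siFEM1B and 0.154 CPM in sgCTRL_siFEM1B cells and rose (4.24 ± 0.49), and Slc39a8, a transporter of zinc, manganese and iron, rose by 1.26 ± 0.12. Slc11a2, which encodes the divalent metal transporter DMT1, fell by 0.74 ± 0.078. Cp, the gene of the ferroxidase ceruloplasmin, fell to 1.49 CPM in sgBACH1_siFEM1B cells, against 11.2 CPM in sgCTRL_siFEM1B cells (-2.88 ± 0.25). The transferrin receptor gene Tfrc, at 321, 391 and 317 CPM in sgBACH1_siFEM1B cells, against 242, 306 and 319 CPM in sgCTRL_siFEM1B cells, rose by 0.25 ± 0.087 (adjusted p = 0.0212), a call lost without sgBACH1_siFEM1B replicate 2 or sgCTRL_siFEM1B replicate 1, where the value was 0.14 in both cases. Slc40a1, the iron exporter ferroportin, averaged 0.464 CPM in sgBACH1_siFEM1B and 0.612 CPM in sgCTRL_siFEM1B cells and was not called.

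Of 15 measured genes of heme degradation, binding and transport, 6 rose and 3 fell. Pgrmc1, a heme-binding membrane protein gene, had no count in any sgCTRL_siFEM1B library and 8.86 CPM in sgBACH1_siFEM1B cells, at least 180.2-fold higher against 3 counts over the control group. The heme exporter gene Abcg2 rose by 1.36 ± 0.15, while Blvrb, a biliverdin reductase gene, fell (-0.50 ± 0.079). Hmox2, the constitutive heme oxygenase gene, was not called (-0.13 ± 0.068, adjusted p = 0.118). Of 14 measured heme synthesis genes, 5 rose and 3 fell. Falls numbered 1 without sgBACH1_siFEM1B replicate 1 or sgCTRL_siFEM1B replicate 1. The rises included both mitoferrins, the importers of iron into mitochondria, with log2 fold changes of 0.94 ± 0.056 for Slc25a28 (0.49 with the median of its chromosome removed) and 0.72 ± 0.071 for Slc25a37 (0.48), and the uroporphyrinogen synthase gene Uros (0.82 ± 0.19). Among 21 iron-sulfur cluster genes, 8 rose, with the scaffold gene Iscu at 0.32 ± 0.087 and the co-chaperone gene Hscb at 0.48 ± 0.11, and 4 fell, with the chaperone gene Hspa9 at -0.54 ± 0.046. Falls numbered 2 without sgBACH1_siFEM1B replicate 1.

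**Figure D3:**
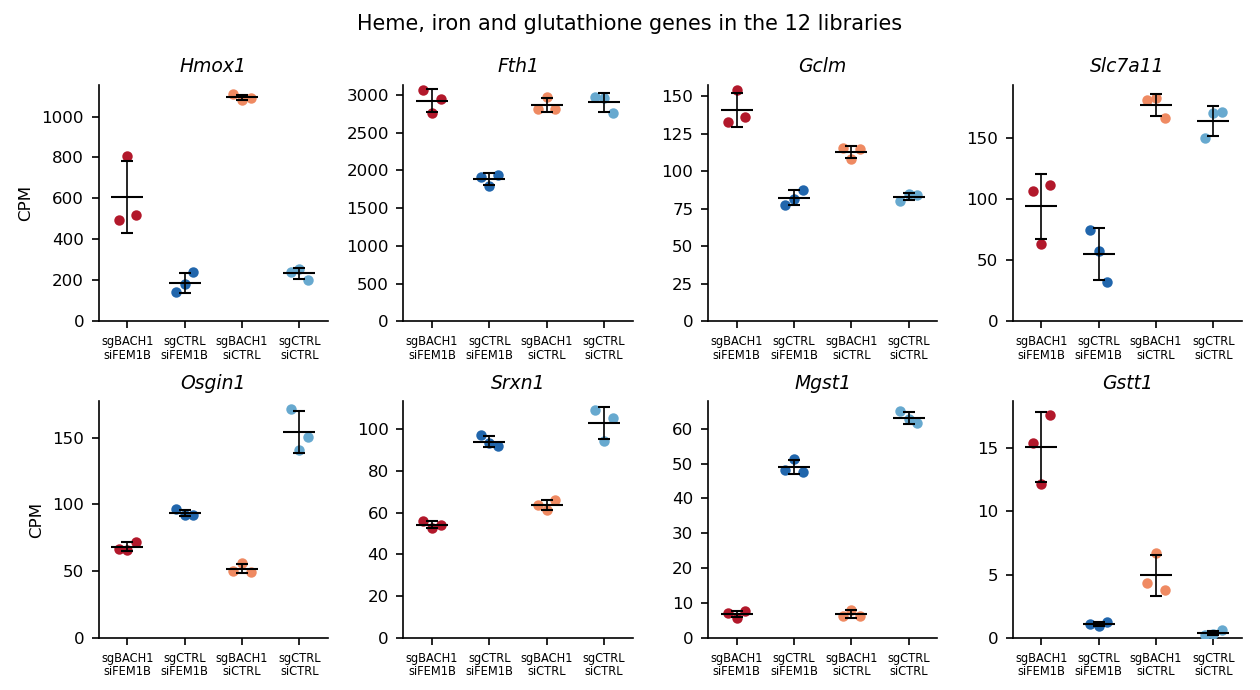
CPM in each of the 3 libraries of 4 groups is shown as points, with the mean and SD as black lines, for 8 genes of heme, iron and glutathione metabolism; groups run from sgBACH1_siFEM1B to sgCTRL_siCTRL. Hmox1 and Gclm are higher with the BACH1 guide under either siRNA, Fth1 is lowest in sgCTRL_siFEM1B cells, and Srxn1 and Mgst1 are lower with the BACH1 guide.

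Cystine import and glutathione synthesis genes were mostly higher in the knockout. Of 14 measured members, 8 rose and 1 fell, with a median of 0.34 under FEM1B siRNA and 0.091 under control siRNA. With the median of each chromosome removed, the value under FEM1B siRNA was 0.18. Falls numbered 2 without sgBACH1_siFEM1B replicate 2 or sgCTRL_siFEM1B replicate 3. Gclm, the modifier subunit of the first enzyme of glutathione synthesis, was measured at 133, 154 and 136 CPM in sgBACH1_siFEM1B cells, against 77.8, 81.3 and 87.6 CPM in sgCTRL_siFEM1B cells. The groups did not overlap, and the log2 fold change was 0.78 ± 0.063 (adjusted p = 3.7e-09). Its promoter (RefSeq, GRCm38.p6, chr3:122245307-122245606, plus strand) is shown because it holds the antioxidant response element core, the site class shared by BACH1 and NRF2, written here as TGACNNNGC; its single match lies on the opposite strand and is marked in capitals.
Gclm: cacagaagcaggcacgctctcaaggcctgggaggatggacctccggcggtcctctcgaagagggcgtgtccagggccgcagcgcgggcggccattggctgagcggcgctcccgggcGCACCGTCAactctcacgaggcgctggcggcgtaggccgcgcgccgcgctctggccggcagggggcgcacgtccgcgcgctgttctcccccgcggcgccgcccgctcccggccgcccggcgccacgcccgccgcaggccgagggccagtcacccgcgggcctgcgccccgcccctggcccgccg
The match begins 134 bases before the gene's start. On either strand of such 300-base promoters, 250 bases before to 50 after the start, the core was found in 44.0% of 25 NRF2 targets and 38.5% of 13 BACH1-repressed genes with a promoter in the table, against 16.9% of 10276 tested genes. The NRF2 and BACH1 lists share members. Among other lists the share ran from 0% of 19 ferroptosis defence genes to 44.4% of 9 BACH, NRF and small MAF factors, with 41.2% of 17 metal genes. A match is a description of these letters and not a measured site.

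Slc7a11, the cystine importer subunit, was measured at 107, 63.9 and 112 CPM in sgBACH1_siFEM1B cells, against 75.3, 58.1 and 32.3 CPM in sgCTRL_siFEM1B cells. Knockout replicate 2 lay below control replicate 1, so the groups overlapped, and the log2 fold change of 0.76 ± 0.20 (adjusted p = 0.00301) was 0.49 without sgCTRL_siFEM1B replicate 3 and 0.98 without sgBACH1_siFEM1B replicate 2. Its partner chain gene Slc3a2 rose by 0.63 ± 0.075 (0.19 with the median of its chromosome removed). Both enzymes of transsulfuration, which makes cysteine from homocysteine, rose: Cbs averaged 10.5 CPM in sgBACH1_siFEM1B and 3.97 CPM in sgCTRL_siFEM1B cells (1.41 ± 0.19) and Cth 14.2 CPM in sgBACH1_siFEM1B and 3.46 CPM in sgCTRL_siFEM1B cells (2.02 ± 0.17). Gclc, the catalytic subunit partner of Gclm, lies on chromosome 9 and rose by 0.24 ± 0.065 (adjusted p = 0.00402), but stood at -0.051 once the chromosome's median was removed. The member that fell was Gsr, the glutathione reductase gene (-0.42 ± 0.056).

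NRF2 target genes, a list that shares members with the BACH1-repressed genes, also moved in both directions. Of 30 measured, 13 rose and 10 fell under FEM1B siRNA, whereas under control siRNA 6 rose and 16 fell. The interaction was called for 7 of them, all toward higher values under FEM1B siRNA, against 3.45% of genes in that direction over the table. That number was 4 without sgBACH1_siCTRL replicate 1 or 3, sgBACH1_siFEM1B replicate 3 or sgCTRL_siFEM1B replicate 2 and 11 without sgBACH1_siFEM1B replicate 2. Osgin1, an oxidative stress-induced growth inhibitor gene, was measured at 66.6, 66.2 and 72.0 CPM in sgBACH1_siFEM1B cells, against 96.4, 92.1 and 92.1 CPM in sgCTRL_siFEM1B cells, and at 49.9, 56.1 and 49.7 CPM in sgBACH1_siCTRL cells and 171, 141 and 150.3 CPM in sgCTRL_siCTRL cells. It was lower in every knockout library under either siRNA, by 0.46 ± 0.071 with FEM1B siRNA and by 1.57 ± 0.072 with control siRNA on the log2 scale, and the interaction was 1.11 ± 0.10 (adjusted p = 8.18e-06). Aldh3a1, an aldehyde dehydrogenase gene, was measured at 102, 73.1 and 104 CPM in sgBACH1_siFEM1B cells, against 80.7, 75.8 and 63.2 CPM in sgCTRL_siFEM1B cells. The groups overlapped. It rose under FEM1B siRNA (0.34 ± 0.11), a call lost without sgBACH1_siFEM1B replicate 1 or 3 or sgCTRL_siFEM1B replicate 3 (lowest value 0.24), and fell under control siRNA (-0.91 ± 0.11), with an interaction of 1.25 ± 0.15 (adjusted p = 7.32e-05). The malic enzyme gene Me1 and Ugdh, which makes UDP-glucuronic acid, rose (0.54 ± 0.054, or 0.25 with the median of its chromosome removed, and 0.39 ± 0.045), and the aldo-keto reductase gene Akr1c13 fell (-1.60 ± 0.10). Nfe2l2, the NRF2 gene, averaged 58.3 ± 3.09 CPM in sgBACH1_siFEM1B and 55.3 ± 3.15 CPM in sgCTRL_siFEM1B cells (SD, n = 3 each) and was not called (0.076 ± 0.062, adjusted p = 0.312, edgeR), but was called at 0.20 (adjusted p = 0.0126) with the median of its chromosome removed.

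Glutathione transferases, which couple glutathione to reactive compounds for export, were mostly higher in the knockout under FEM1B siRNA. Of 17 measured, 10 rose and 1 fell under FEM1B siRNA, against 4 rises and 6 falls under control siRNA, and the interaction was called upward for 5. That number was 3 without sgBACH1_siCTRL replicate 1 or 3, sgBACH1_siFEM1B replicate 1 or 3, sgCTRL_siCTRL replicate 1, 2 or 3 or sgCTRL_siFEM1B replicate 2. Falls numbered 2 without sgBACH1_siFEM1B replicate 1 or with the median of each chromosome removed. Counts may be split among the near-identical members of the alpha, mu, pi and theta classes, so single values are uncertain. Gstt1 was measured at 15.4, 12.1 and 17.6 CPM in sgBACH1_siFEM1B cells, against 1.12, 0.927 and 1.25 CPM in sgCTRL_siFEM1B cells and rose by 3.78 ± 0.24. Gstt3 rose by 3.26 ± 0.28. Gsta4, an enzyme for products of lipid peroxidation, averaged 51.9 CPM in sgBACH1_siFEM1B and 41.6 CPM in sgCTRL_siFEM1B cells and rose by 0.32 ± 0.075 under FEM1B siRNA, with -0.61 ± 0.076 under control siRNA and an interaction of 0.93 ± 0.11 (adjusted p = 5.98e-05); with the median of its chromosome removed the first value was 0.029 and no longer called. Mgst2, a microsomal member, rose by 0.43 ± 0.076 with an interaction of 0.60 ± 0.11 (adjusted p = 0.00325). Mgst1, a microsomal transferase and peroxidase gene, was the member that fell, at 7.03, 5.78 and 7.73 CPM in sgBACH1_siFEM1B cells, against 48.3, 51.3 and 47.4 CPM in sgCTRL_siFEM1B cells (-2.84 ± 0.10).

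Of 20 measured thioredoxin and peroxide enzymes, 8 rose and 5 fell. Rises numbered 5 with the median of each chromosome removed. Prdx4, the peroxiredoxin of the endoplasmic reticulum (ER), rose by 0.51 ± 0.067. Gpx8, an ER peroxidase gene, fell by 1.0 ± 0.086, and Txnip, the thioredoxin inhibitor gene, fell to 216 CPM in sgBACH1_siFEM1B cells, against 624 CPM in sgCTRL_siFEM1B cells (-1.53 ± 0.073), with an interaction of -0.51 ± 0.10 (adjusted p = 0.00622). Among 16 NADPH-producing enzymes, 4 rose and 4 fell. Falls numbered 2 without sgBACH1_siFEM1B replicate 1 or 3 or with the median of each chromosome removed. The cytosolic isocitrate dehydrogenase gene Idh1 rose by 0.34 ± 0.066 and the pentose phosphate enzyme gene Pgls by 0.31 ± 0.070, with interactions of 0.56 ± 0.094 and 0.45 ± 0.099 (adjusted p = 0.00181 and 0.0128).

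Genes that act on lipid peroxides and membrane lipids had small differences. Of 25 measured ferroptosis defence genes, 8 rose and 5 fell, with a median of 0.041, or -0.075 with the median of each chromosome removed. Falls numbered 3 without sgBACH1_siFEM1B replicate 1 or sgCTRL_siFEM1B replicate 2. Gpx4, the peroxidase that reduces lipid peroxides, was measured at 55.3, 46.0 and 53.9 CPM in sgBACH1_siFEM1B cells, against 43.2, 40.4 and 51.5 CPM in sgCTRL_siFEM1B cells. The groups overlapped, and the log2 fold change of 0.20 ± 0.084 (adjusted p = 0.0476) was called in only 2 of the 12 fits with 1 library left out, those without sgBACH1_siFEM1B replicate 2 or sgCTRL_siFEM1B replicate 3, and stood at 0.13 without sgCTRL_siFEM1B replicate 2. With the median of its chromosome removed it was 0.095 and not called (adjusted p = 0.362). Aifm2, which encodes the CoQ reductase FSP1, was lower by 0.18 ± 0.076 (adjusted p = 0.0489; -0.29 with the median of its chromosome removed) and was called in 3 of those 12 fits, without sgBACH1_siCTRL replicate 2 or 3 or sgCTRL_siFEM1B replicate 3. Coq2, an enzyme of CoQ synthesis, was measured at 49.8, 38.8 and 46.1 CPM in sgBACH1_siFEM1B cells, against 28.5, 24.5 and 26.8 CPM in sgCTRL_siFEM1B cells, without overlap, and rose by 0.76 ± 0.096 with an interaction of 0.65 ± 0.13 (adjusted p = 0.00817). Acsl3, which activates monounsaturated fatty acids, rose by 0.47 ± 0.059. Mboat1, a phospholipid acyltransferase gene, fell by 0.33 ± 0.057.

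Of 17 measured genes whose products favour lipid peroxidation or mark ferroptosis, 8 rose and 5 fell. Falls numbered 3 without sgBACH1_siFEM1B replicate 1. The fatty acid elongase gene Elovl5 rose by 0.63 ± 0.048 (0.34 with the median of its chromosome removed). Falls were measured for Por, the cytochrome P450 reductase gene (-0.31 ± 0.055), Tmem189, the plasmanylethanolamine desaturase gene (-0.47 ± 0.089), and Ptgs2, the cyclooxygenase 2 gene often used as a ferroptosis marker (-0.65 ± 0.092).

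Interferon-stimulated genes, which cells switch on through STAT2 and IRF9 when interferon is sensed, were lower in the knockout almost without exception. Of 41 measured members of 47 listed, 40 fell; the median was -2.66 on the log2 scale under FEM1B siRNA and -2.96 under control siRNA. The first was -2.66 with Trim30a, which had no count in sgBACH1_siFEM1B cells, at its bound. The promoters of 3 interferon-responsive genes (RefSeq, GRCm38.p6) are shown because each holds the interferon response element core GAAANNGAA, given in capitals; in Ifit1 the matches lie on the opposite strand, and neighbouring matches overlap. They are Isg15 (chr4:156200769-156201068, minus strand), Ifit1 (chr19:34640639-34640938, plus strand) and B2m (chr2:122147437-122147736, plus strand).
Isg15: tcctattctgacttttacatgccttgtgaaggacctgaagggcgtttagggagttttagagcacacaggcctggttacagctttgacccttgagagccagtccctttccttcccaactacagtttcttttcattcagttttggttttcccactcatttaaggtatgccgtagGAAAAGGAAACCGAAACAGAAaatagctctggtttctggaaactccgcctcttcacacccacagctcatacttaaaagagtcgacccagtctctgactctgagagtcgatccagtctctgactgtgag
Ifit1: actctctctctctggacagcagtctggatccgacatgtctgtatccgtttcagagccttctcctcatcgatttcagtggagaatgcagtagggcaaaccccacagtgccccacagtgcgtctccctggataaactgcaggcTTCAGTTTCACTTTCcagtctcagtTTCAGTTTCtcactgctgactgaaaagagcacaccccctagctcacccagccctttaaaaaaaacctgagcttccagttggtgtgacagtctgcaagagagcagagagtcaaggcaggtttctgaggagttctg
B2m: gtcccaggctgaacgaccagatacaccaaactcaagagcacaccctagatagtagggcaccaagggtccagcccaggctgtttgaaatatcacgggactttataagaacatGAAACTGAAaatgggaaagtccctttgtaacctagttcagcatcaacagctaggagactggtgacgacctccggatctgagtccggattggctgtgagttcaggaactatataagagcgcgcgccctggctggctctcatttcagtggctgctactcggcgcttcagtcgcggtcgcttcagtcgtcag
Matches begin 78, 72 and 66 bases before the start of Isg15, 109, 103 and 84 bases before that of Ifit1 and 139 bases before that of B2m. The core was found in 63.3% of 30 interferon-stimulated genes and 35.7% of 14 genes of MHC class I presentation with a promoter in the table, against 8.32% of 10276 tested genes and 9.76% of all 27025 promoters. Among other lists the share ran from 0%, as in 23 DNA replication genes, to 30.0% of 10 heme synthesis genes, with 25.0% of 16 glutathione transferases.

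Isg15, a ubiquitin-like modifier, was measured at 3.39, 1.94 and 2.84 CPM in sgBACH1_siFEM1B cells, against 26.1, 28.5 and 43.2 CPM in sgCTRL_siFEM1B cells. Ifit1, which binds foreign RNA caps, was measured at 0.485, 0.486 and 0.302 CPM in sgBACH1_siFEM1B cells, against 9.64, 13.1 and 11.3 CPM in sgCTRL_siFEM1B cells. In both genes every sgBACH1_siFEM1B library lay below every sgCTRL_siFEM1B library, with log2 fold changes of -3.56 ± 0.20 and -4.70 ± 0.23 (adjusted p = 1.06e-11 and 1.11e-12). Bst2, which tethers virus particles, was measured at 66.1, 62.9 and 57.4 CPM in sgBACH1_siFEM1B cells, against 126, 131 and 166 CPM in sgCTRL_siFEM1B cells and fell by 1.18 ± 0.086. Among further members, Irf7, an amplifier of the response, averaged 1.94 CPM in sgBACH1_siFEM1B and 25.0 CPM in sgCTRL_siFEM1B cells, Oasl2 3.20 CPM in sgBACH1_siFEM1B and 47.6 CPM in sgCTRL_siFEM1B cells, Usp18, the remover of ISG15, 0.306 CPM in sgBACH1_siFEM1B and 12.9 CPM in sgCTRL_siFEM1B cells, and Xaf1 2.16 CPM in sgBACH1_siFEM1B and 18.4 CPM in sgCTRL_siFEM1B cells, with log2 fold changes of -3.67, -3.87, -5.36 and -3.08. The member not called was Isg20, an exonuclease gene, at 111 CPM in sgBACH1_siFEM1B and 113 CPM in sgCTRL_siFEM1B cells (-0.017 ± 0.11, adjusted p = 0.909). The number of falls was 40 to 40 with each of the 12 libraries left out in turn. The leukocyte marker Cd68 was lower too, at 9.45 CPM in sgBACH1_siFEM1B and 24.6 CPM in sgCTRL_siFEM1B cells (-1.38 ± 0.14), and its part in these values was not tested.

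**Figure D4:**
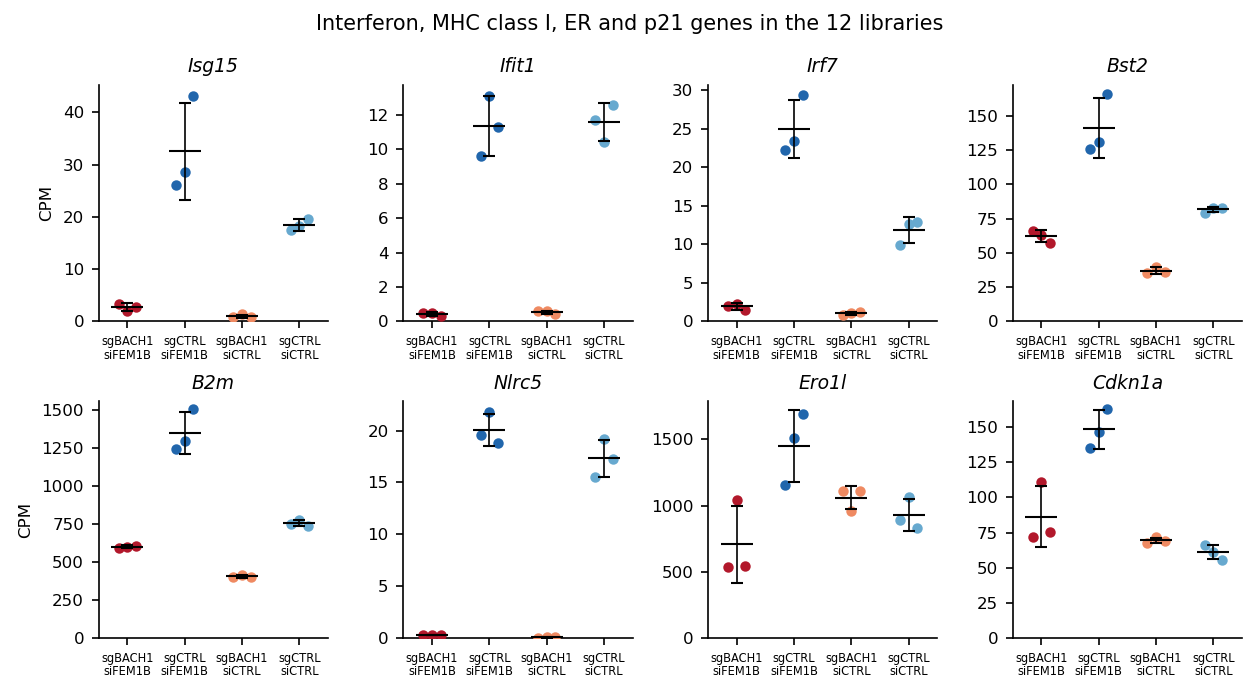
CPM in each of the 3 libraries of 4 groups is shown as points, with the mean and SD as black lines, for 6 genes of the interferon response and MHC class I presentation and for Ero1l and Cdkn1a; groups run from sgBACH1_siFEM1B to sgCTRL_siCTRL. The 6 interferon and MHC genes are lower with the BACH1 guide under either siRNA, whereas Ero1l and Cdkn1a are highest in sgCTRL_siFEM1B cells on average.

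Components upstream of these genes were lower too. Of 28 measured interferon receptors, kinases and sensors of foreign nucleic acid, 21 fell and 5 rose. Rises numbered 3 with the median of each chromosome removed. Under control siRNA 17 fell and 2 rose. The list is not separate from the interferon-stimulated genes, since Irf7 is in both. Tmem173, which encodes the DNA-sensing adaptor STING, was measured at 30.7, 29.8 and 36.0 CPM in sgBACH1_siFEM1B cells, against 162, 133 and 129 CPM in sgCTRL_siFEM1B cells and fell without overlap (-2.14 ± 0.085). The adaptor gene Mavs fell by 0.47 ± 0.055, Irf9 by 0.60 ± 0.10, Stat2 by 0.68 ± 0.10 and the receptor gene Ifnar1 by 0.32 ± 0.066. Irf3, the factor activated by STING and MAVS, rose by 0.44 ± 0.072.

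Antigen presentation by MHC class I was lower as a group. Of 17 measured members, 12 fell and 1 rose, with a median of -0.52. The rise was that of Psme1, a proteasome activator subunit gene (0.21 ± 0.070), no longer called without sgBACH1_siFEM1B replicate 1 or 3 or sgCTRL_siFEM1B replicate 1 or 2 and at -0.037 with the median of its chromosome removed. Nlrc5, the transactivator of MHC class I genes, was measured at 0.242, 0.270 and 0.241 CPM in sgBACH1_siFEM1B cells, against 19.6, 21.8 and 18.8 CPM in sgCTRL_siFEM1B cells, the largest fall of the list at -6.28 ± 0.22 (adjusted p = 7.19e-15). B2m, the invariant light chain, was measured at 590.1, 600.0 and 607 CPM in sgBACH1_siFEM1B cells, against 1239.8, 1294 and 1501 CPM in sgCTRL_siFEM1B cells and fell by 1.17 ± 0.059. The heavy chain gene H2-D1 fell by 1.18 ± 0.064, the peptide transporter gene Tap2 by 1.69 ± 0.10 and the loading factor gene Tapbp by 0.79 ± 0.051. H2-K1, another heavy chain gene, averaged 71.3 CPM in sgBACH1_siFEM1B and 79.8 CPM in sgCTRL_siFEM1B cells and was not called (-0.16 ± 0.096), and its interaction of -0.76 ± 0.14 passed the test (adjusted p = 0.00348), against 0.60 ± 0.10 under control siRNA. Under FEM1B siRNA it was called at -0.32 (adjusted p = 0.00216) without sgBACH1_siFEM1B replicate 2 and at -0.28 (adjusted p = 0.0202) with the median of its chromosome removed. Counts of H2 genes are uncertain because of their near-identical copies.

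Chemokines and cytokines did not follow the interferon genes as a group. Of 21 measured, 11 rose and 6 fell. Cxcl10 and Ccl5, both interferon-inducible attractants of T cells, fell to 4.98 and 4.28 CPM in sgBACH1_siFEM1B cells, against 42.6 and 60.0 CPM in sgCTRL_siFEM1B cells (-3.10 ± 0.23 and -3.82 ± 0.16). Cxcl5, a neutrophil attractant, was measured at 109, 82.5 and 103 CPM in sgBACH1_siFEM1B cells, against 20.4, 21.5 and 18.5 CPM in sgCTRL_siFEM1B cells and rose without overlap (2.28 ± 0.10), as did the monocyte attractant Ccl2 (1.66 ± 0.23). Tnfaip3, the gene of the NF-kB inhibitor A20, rose by 0.85 ± 0.065, and Lif fell by 0.62 ± 0.060. The inhibitor gene Nfkbia was not called under FEM1B siRNA (-0.11 ± 0.071) and its interaction was -0.52 ± 0.10 (adjusted p = 0.00597). Of 13 AP-1 and immediate early genes, 4 rose, among them Junb (0.36 ± 0.076) and Jdp2 (1.33 ± 0.20), and 4 fell, among them Jund (-0.40 ± 0.078).

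ER chaperones and the unfolded protein response differed between the siRNAs in the direction of the knockout. Of 20 measured members, 11 fell and 2 rose under FEM1B siRNA, against 3 falls and 8 rises under control siRNA. Creb3l1 had the largest change of the list, a rise of 5.22 on the log2 scale under FEM1B siRNA. The interaction was called downward for 8 members, against 2.60% of all genes. That number was 13 without sgBACH1_siFEM1B replicate 2. Rises numbered 1 without sgCTRL_siFEM1B replicate 1 or 2. Ero1l, the ER oxidase that drives disulfide bonds and is also induced by hypoxia, was measured at 536, 1045 and 542 CPM in sgBACH1_siFEM1B cells, against 1157, 1513 and 1689.6 CPM in sgCTRL_siFEM1B cells, and at 1107, 959 and 1112 CPM in sgBACH1_siCTRL cells and 888, 1067 and 832 CPM in sgCTRL_siCTRL cells. Replicate 2 of the knockout was the highest of its group, and all knockout libraries were below all control libraries. The log2 fold change was -1.04 ± 0.18 under FEM1B siRNA and 0.19 ± 0.18 under control siRNA, with an interaction of -1.23 ± 0.25 (adjusted p = 0.00817); without sgBACH1_siFEM1B replicate 2 it was -1.62. Hspa5, the chaperone BiP, was measured at 933, 1399 and 919 CPM in sgBACH1_siFEM1B cells, against 1068, 1183 and 1542 CPM in sgCTRL_siFEM1B cells and was not called under FEM1B siRNA (-0.22 ± 0.13), but rose under control siRNA (0.61 ± 0.13), and its interaction was -0.83 ± 0.18 (adjusted p = 0.0106). Under FEM1B siRNA it was called at -0.45 (adjusted p = 0.000515) without sgBACH1_siFEM1B replicate 2, at -0.33 (adjusted p = 0.0341) without sgCTRL_siFEM1B replicate 1 and at -0.23 (adjusted p = 0.000104) with no count filter. Creld2, an ER stress-induced gene, and Calr, the lectin chaperone calreticulin, fell (-0.44 ± 0.088 and -0.38 ± 0.071), with interactions of -0.58 ± 0.13 and -0.46 ± 0.10 (adjusted p = 0.0117 and 0.0117).

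Hypoxia and glycolysis genes, many of them targets of the factor HIF, rose less often than all genes under FEM1B siRNA. Falls were near the share of all genes. Of 33 measured, 3 rose and 10 fell, with a median of -0.068, where 28.1% of all genes were higher and 26.4% lower. Under control siRNA 17 rose and 5 fell. Falls under FEM1B siRNA numbered 8 to 15 with 1 library left out and 14 with the median of each chromosome removed. Rises numbered 7 without sgCTRL_siFEM1B replicate 3. The interaction was called downward for 8 members. That number was 2 without sgBACH1_siCTRL replicate 1 or 3, sgBACH1_siFEM1B replicate 1 or 3 or sgCTRL_siFEM1B replicate 2; 3 without sgCTRL_siCTRL replicate 3; 5 without sgBACH1_siCTRL replicate 2 or sgCTRL_siCTRL replicate 2; 13 without sgCTRL_siFEM1B replicate 1; 17 without sgBACH1_siFEM1B replicate 2. Ndrg1, a HIF-inducible gene, was measured at 229, 347 and 244 CPM in sgBACH1_siFEM1B cells, against 542, 635 and 662 CPM in sgCTRL_siFEM1B cells and fell (-1.16 ± 0.10), with an interaction of -0.83 ± 0.15 (adjusted p = 0.00263). The phosphoglycerate kinase gene Pgk1 averaged 117 CPM in sgBACH1_siFEM1B and 171 CPM in sgCTRL_siFEM1B cells and fell by 0.55 ± 0.093, with an interaction of -0.62 ± 0.13 (adjusted p = 0.0102). Neither gene's interaction call depended on a single library.

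Of 30 measured genes of the ATF4 amino acid response and of serine and one-carbon metabolism, 12 rose and 5 fell. Stc2 had no count in sgCTRL_siFEM1B cells and 3.06 CPM in sgBACH1_siFEM1B cells, at least 62.4-fold higher against 3 counts over the control group. The lowest log2 fold change in the list was -1.29. The serine hydroxymethyltransferase genes Shmt1 and Shmt2 rose (0.70 ± 0.12 and 0.60 ± 0.097), as did the serine synthesis gene Phgdh (0.29 ± 0.079). For Phgdh the knockout difference was -0.24 ± 0.078 under control siRNA, and the interaction was 0.53 ± 0.11 (adjusted p = 0.00920).

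Lipid synthesis genes were more often higher than lower. Of 24 measured cholesterol synthesis genes, 12 rose and 2 fell, with a median of 0.20. Falls numbered 1 without sgBACH1_siFEM1B replicate 3 or sgCTRL_siFEM1B replicate 1 or 2 or with the median of each chromosome removed. Cyp51, the lanosterol demethylase gene, averaged 208 CPM in sgBACH1_siFEM1B and 149 CPM in sgCTRL_siFEM1B cells (0.48 ± 0.085) and Acat2, which starts the pathway, 106 CPM in sgBACH1_siFEM1B and 70.5 CPM in sgCTRL_siFEM1B cells (0.59 ± 0.069). Of 16 fatty acid synthesis genes, 9 rose and 3 fell.

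Lysosomal genes were lower. Of 33 measured hydrolases, membrane proteins and proton pump subunits, 21 fell and 3 rose, with a median of -0.27 under FEM1B siRNA and -0.16 under control siRNA. The proton pump subunit gene Atp6v1a averaged 97.6 CPM in sgBACH1_siFEM1B and 155 CPM in sgCTRL_siFEM1B cells (-0.67 ± 0.066), the beta-glucuronidase gene Gusb 41.1 CPM in sgBACH1_siFEM1B and 64.5 CPM in sgCTRL_siFEM1B cells (-0.65 ± 0.076), the acid alpha-glucosidase gene Gaa 141 CPM in sgBACH1_siFEM1B and 208 CPM in sgCTRL_siFEM1B cells (-0.57 ± 0.049) and the membrane protein gene Lamp1 753 CPM in sgBACH1_siFEM1B and 932 CPM in sgCTRL_siFEM1B cells (-0.31 ± 0.045). Fnip1, the partner of folliculin in lysosomal nutrient sensing and a FEM1B substrate as a protein, was not called (0.049 ± 0.090, adjusted p = 0.668). Of 46 nuclear-encoded respiratory chain genes, 17 rose and 5 fell. Falls numbered 3 without sgBACH1_siFEM1B replicate 2. The complex IV genes Cox8a and Cox6a1 rose (0.77 ± 0.068, or 0.33 with the median of its chromosome removed, and 0.42 ± 0.063), and Sdhb of complex II fell (-0.36 ± 0.062). Of 30 proteasome subunits, 4 rose and 15 fell. Rises numbered 1 with the median of each chromosome removed, 2 without sgCTRL_siFEM1B replicate 1 and 7 without sgCTRL_siFEM1B replicate 3. Falls numbered 9 with the median of each chromosome removed.

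Factors on a mixed list of lung, gut and other lineages were higher more often than lower in the knockout. The lung factor Nkx2-1 and the listed Sox11, Sox17, Hopx and Hoxb2 had no count in any of the 6 libraries. Of 22 measured lineage factors, 13 rose and 4 fell, with a median of 0.38, or 0.38 with Sox12, which had no count in sgCTRL_siFEM1B cells, at its bound. Hnf4a, a factor of liver and gut epithelium, was measured at 109.8, 96.1 and 105 CPM in sgBACH1_siFEM1B cells, against 42.2, 35.4 and 29.3 CPM in sgCTRL_siFEM1B cells and rose without overlap (1.54 ± 0.098). Cdx2, an intestinal factor, rose by 0.90 ± 0.082 and Foxa2, an endoderm factor, by 0.77 ± 0.069. Gata4 averaged 13.7 CPM in sgBACH1_siFEM1B cells and had 2 counts over the 3 sgCTRL_siFEM1B libraries, a ratio of 421 (exact 95% interval 116 to 3480.1). Id1, an inhibitor of differentiation factors, averaged 339.5 CPM in sgBACH1_siFEM1B and 108 CPM in sgCTRL_siFEM1B cells (1.65 ± 0.073). Sox9 fell (-0.41 ± 0.070). The 6 gut and stomach markers summed to 149.7 to 164 CPM in sgBACH1_siFEM1B and 59.8 to 74.9 CPM in sgCTRL_siFEM1B cells; of 3 measured, 2 rose, the lineage factors Hnf4a and Cdx2 given above, and the defining markers Cdx1 and Gkn2 were at 0 in all 6 libraries. Their part in these values was not tested.

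Keratins and small proline-rich proteins, which build the cytoskeleton and the cornified envelope of epithelia, fell in 10 of 15 measured members and rose in 2, with a median of -1.30. Sprr1a was measured at 38.1, 48.0 and 42.1 CPM in sgBACH1_siFEM1B cells, against 915, 784 and 953 CPM in sgCTRL_siFEM1B cells (-4.37 ± 0.099), and counts of Sprr genes are uncertain because of near-identical copies. Krt7 was measured at 591, 564 and 599 CPM in sgBACH1_siFEM1B cells, against 1444, 1382 and 1490.0 CPM in sgCTRL_siFEM1B cells and fell by 1.30 ± 0.054 under FEM1B siRNA and by 1.96 ± 0.055 under control siRNA, with an interaction of 0.66 ± 0.075 (adjusted p = 5.98e-05). Krt23 rose by 2.72 ± 0.10 under FEM1B siRNA and by 3.48 ± 0.11 under control siRNA, with an interaction of -0.76 ± 0.15 (adjusted p = 0.00707). Krt8 and Krt19, keratins of simple epithelia, were not called (0.0074 ± 0.057 and 0.014 ± 0.060).

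Of 20 measured junction genes, 9 rose and 5 fell. Cdh1, E-cadherin, was measured at 627, 571 and 647 CPM in sgBACH1_siFEM1B cells, against 429.7, 394 and 377 CPM in sgCTRL_siFEM1B cells and rose by 0.62 ± 0.060 under FEM1B siRNA and 1.0 ± 0.060 under control siRNA, with an interaction of -0.38 ± 0.084 (adjusted p = 0.0119). The desmosome gene Dsp rose (4.78 ± 0.34), as did the tight junction gene Ocln (2.93 ± 0.33), and Cldn4 fell (-2.25 ± 0.22). Of 21 genes of epithelial-mesenchymal transition, 5 rose and 8 fell. Rises numbered 8 with the median of each chromosome removed and 3 without sgBACH1_siFEM1B replicate 1. The transcription factor genes Twist1 and Zeb2 rose (2.38 ± 0.17 and 0.56 ± 0.093), Prrx1 fell (-1.01 ± 0.070), and Cdh2, N-cadherin, fell (-0.51 ± 0.063).

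Matrix genes were lower more often than higher. Of 44 measured collagens, laminins, integrins and processing enzymes, 21 fell and 11 rose, and the interaction was called downward for 9. That number was 15 without sgCTRL_siFEM1B replicate 3 and 16 without sgBACH1_siFEM1B replicate 2. Serpinh1, the collagen chaperone HSP47, was measured at 244, 226 and 234 CPM in sgBACH1_siFEM1B cells, against 3.48, 2.49 and 2.93 CPM in sgCTRL_siFEM1B cells, a rise of 6.30 ± 0.093. Lamb3 and Itga2, an epithelial laminin chain and a collagen receptor, rose by 0.94 ± 0.11 and 0.38 ± 0.12 under FEM1B siRNA and by 1.73 ± 0.12 and 1.37 ± 0.13 under control siRNA, with interactions of -0.79 ± 0.16 and -0.99 ± 0.18 (adjusted p = 0.00707 and 0.00303). Without sgCTRL_siFEM1B replicate 3 the rise of Itga2 under FEM1B siRNA was 0.20 and not called. Col7a1, the anchoring fibril collagen, fell by 0.33 ± 0.077 (-0.62 with the median of its chromosome removed; interaction -0.51 ± 0.11, adjusted p = 0.0105), and Sparc fell by 0.54 ± 0.044. The 8 fibroblast markers summed to 9.55 to 11.2 CPM in sgBACH1_siFEM1B and 18.4 to 21.7 CPM in sgCTRL_siFEM1B cells, without overlap. Of 3 measured, 2 fell, both collagen genes that the matrix list also holds, and the median was -0.93; none of the 8 was at 0 in all 6 libraries, and their part in the matrix and mesenchymal values was not tested. Of 27 YAP and TGF-beta responsive genes, 11 rose, with Tgfbi at 1.04 ± 0.095 and Smad6 at 1.77 ± 0.097, and 8 fell, with Thbs1 at -0.77 ± 0.17. Rises numbered 7 with the median of each chromosome removed. Of 8 measured hedgehog signalling genes, 2 rose and 3 fell, with the receptor gene Ptch1 at -0.94 ± 0.17, Gli1 at -1.48 ± 0.36 and Gli3 at 0.68 ± 0.10. Rises numbered 1 with the median of each chromosome removed. Falls numbered 5 with the median of each chromosome removed.

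Of 18 measured p53-linked targets, in cells labelled Trp53flox/flox, 6 rose and 7 fell. Rises numbered 3 with the median of each chromosome removed. Cdkn1a, the cell cycle inhibitor p21, was measured at 71.7, 111 and 75.7 CPM in sgBACH1_siFEM1B cells, against 135, 147 and 163 CPM in sgCTRL_siFEM1B cells, and at 67.6, 71.6 and 69.0 CPM in sgBACH1_siCTRL cells and 66.1, 61.2 and 55.8 CPM in sgCTRL_siCTRL cells. All sgBACH1_siFEM1B libraries were below all sgCTRL_siFEM1B libraries, with a log2 fold change of -0.78 ± 0.11 under FEM1B siRNA, 0.18 ± 0.12 under control siRNA and an interaction of -0.97 ± 0.16 (adjusted p = 0.00183). Pmaip1, the apoptosis gene NOXA, averaged 24.6 CPM in sgBACH1_siFEM1B and 0.493 CPM in sgCTRL_siFEM1B cells and rose by 5.64 ± 0.24. Of 30 replication genes, 6 rose and 3 fell, and of 25 mitosis genes, 9 rose and 7 fell, with Cdk1 at 0.47 ± 0.075 and Aurka at -0.49 ± 0.065. Among replication genes, rises numbered 3 without sgCTRL_siFEM1B replicate 2. Falls numbered 6 without sgBACH1_siFEM1B replicate 2. Among mitosis genes, falls numbered 4 with the median of each chromosome removed.

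Among 9 measured BACH, NRF and small MAF factors, 3 rose and 4 fell. Nfe2l3, an NRF2 relative, averaged 50.8 CPM in sgBACH1_siFEM1B and 18.6 CPM in sgCTRL_siFEM1B cells and rose by 1.45 ± 0.095, with an interaction of -0.67 ± 0.14 (adjusted p = 0.00826). Bach2, the BACH1 relative, averaged 1.37 CPM in sgBACH1_siFEM1B and 0.618 CPM in sgCTRL_siFEM1B cells and rose by 1.15 ± 0.35, a call lost without sgCTRL_siFEM1B replicate 1 (0.86). Nfe2l1, Mafg and Mafk fell (-0.35 ± 0.063, -0.45 ± 0.095 and -0.52 ± 0.097). In the FEM1 family and CUL2 ligase, 3 of 18 measured genes rose and 5 fell, with the scaffold gene Cul2 at -0.34 ± 0.054, or -0.17 with the median of its chromosome removed, and the receptor gene Klhdc10 at -0.35 ± 0.060. Rises numbered 5 without sgCTRL_siFEM1B replicate 3. Falls numbered 3 without sgBACH1_siFEM1B replicate 1 or 3. Fem1a and Fem1c, the FEM1B relatives, were not called (0.16 ± 0.089 and -0.26 ± 0.11, adjusted p = 0.149 and 0.0536). Without sgBACH1_siFEM1B replicate 2, Fem1a was called at 0.25 (adjusted p = 0.0215) and Fem1c at -0.34 (adjusted p = 0.0230). Fem1c was also called at -0.40 (adjusted p = 0.00239) without sgCTRL_siFEM1B replicate 3 and, at -0.26 to -0.27, without sgBACH1_siCTRL replicate 2, with DESeq2, its size factors, library totals, no count filter or the replicate block. The metallothionein genes Mt1 and Mt2 rose (0.63 ± 0.16 and 0.85 ± 0.15) in a list of 21 metal genes with 4 rises and 10 falls.

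**Figure D5:**
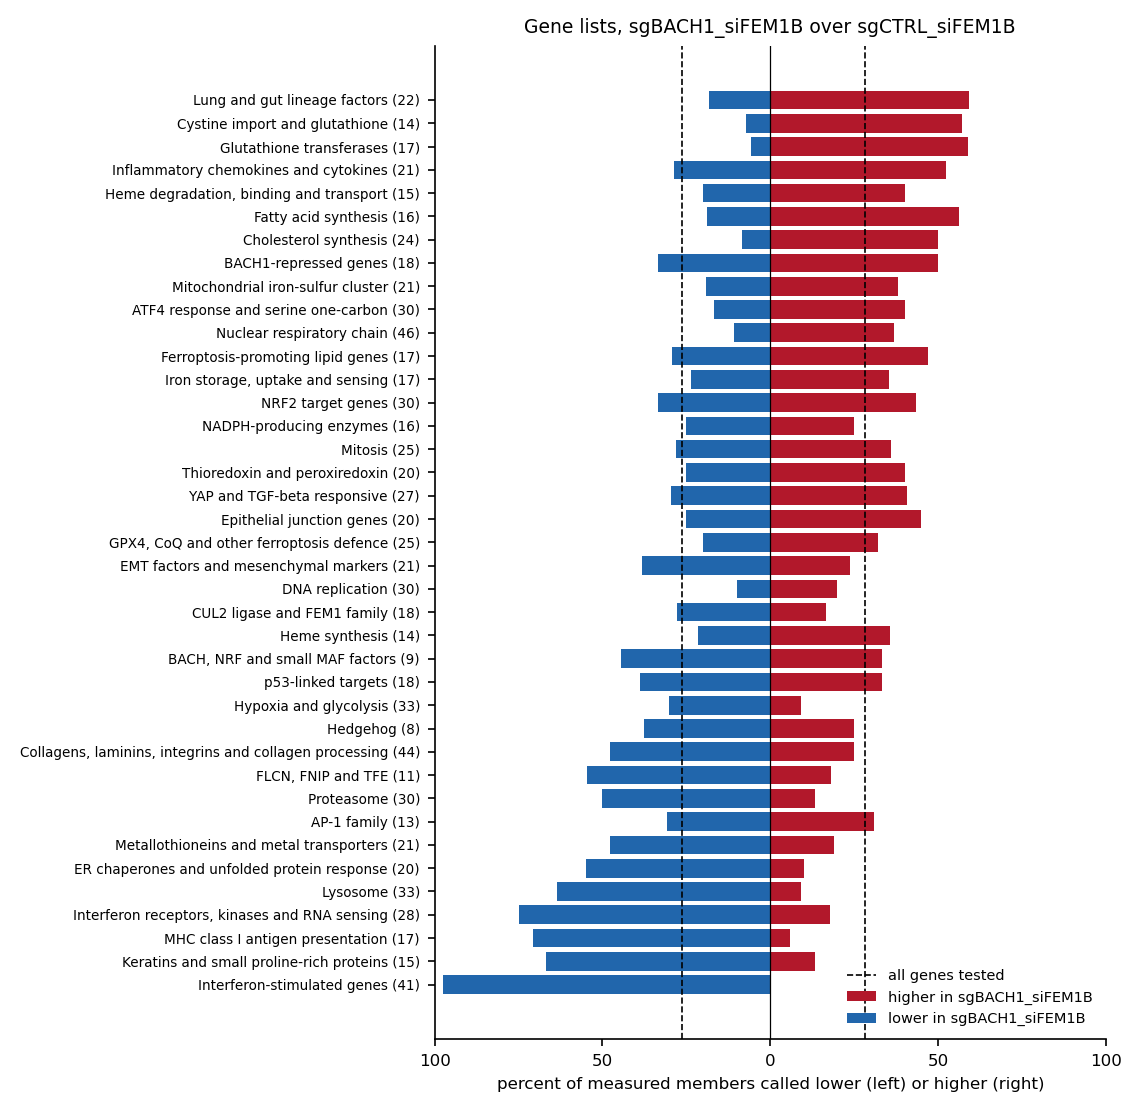
For each gene list (number of measured members in parentheses) the bars give the percent of members called higher (red, right) or lower (blue, left) in sgBACH1_siFEM1B than in sgCTRL_siFEM1B cells, and dashed lines give the 28.1% and 26.4% of all genes tested. Lists are sorted by median log2 fold change; interferon-stimulated genes stand at the bottom with 40 of 41 members lower.

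Some genes had no or few counts in 1 of the lines. The neural and mesenchymal transcription factor gene Sox12 had no count in sgCTRL_siFEM1B cells and 19.8, 16.9 and 16.5 CPM in sgBACH1_siFEM1B cells, at least 366-fold higher against 3 counts over the control group. By the same bound, Zic2 was at least 347-fold, Hoxc4 at least 257-fold, Nme4 at least 219.5-fold and Slc35f2 at least 147-fold higher. Fyn, a Src family kinase gene, averaged 37.1 CPM in sgBACH1_siFEM1B cells with 3 counts over the sgCTRL_siFEM1B libraries, a ratio of 759 (exact 95% interval 259 to 3683). Further large rises at an average log2 CPM of at least 3 were those of Smoc2 (6.53 ± 0.29), a matrix protein gene, Ptpru (5.75 ± 0.13), a receptor phosphatase gene, Creb3l1 (5.22 ± 0.21), Bmp2 (5.00 ± 0.13), Emilin2 (4.45 ± 0.16) and the Notch ligand gene Jag2 (3.91 ± 0.097). No count was found in sgBACH1_siFEM1B cells for Ush1g, Trim30a and Pgm5, which were at least 30.6, 29.4 and 13.0-fold lower by the same bound. Large falls at that level were those of the interferon-inducible Rsad2 (-6.78 ± 0.33), Slfn2 (-4.60 ± 0.12), Rtp4 (-4.54 ± 0.18) and Oasl2 (-3.87 ± 0.16), and of Sprr2h (-4.99 ± 0.17) and Tmem176a and Tmem176b (-4.02 ± 0.11 and -4.10 ± 0.094). Rtp4 overlaps Masp1, and Tmem176a overlaps Tmem176b, and the strand setting of the counting is not given in the sources used here, so these values are uncertain.

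The largest interactions at an average log2 CPM of at least 3 were of either sign. Aqp8, a water and peroxide channel gene, was measured at 1.50, 1.46 and 1.27 CPM in sgBACH1_siFEM1B cells, against 19.4, 16.9 and 14.6 CPM in sgCTRL_siFEM1B cells, and at 0.0526, 0.250 and 0.370 CPM in sgBACH1_siCTRL cells and 22.3, 23.5 and 19.5 CPM in sgCTRL_siCTRL cells. The knockout was lower under either siRNA, by 3.58 ± 0.18 with FEM1B siRNA and 6.52 ± 0.24 with control siRNA, and the interaction was 2.94 ± 0.40 (adjusted p = 0.000294). Apoc2, an apolipoprotein gene, rose by 0.56 ± 0.10 under FEM1B siRNA and fell by 2.15 ± 0.24 under control siRNA, with an interaction of 2.71 ± 0.26 (adjusted p = 1.06e-05). Cldn2, a pore-forming claudin gene, was measured at 17.6, 9.28 and 15.4 CPM in sgBACH1_siFEM1B cells, against 21.3, 15.4 and 10.1 CPM in sgCTRL_siFEM1B cells, which overlap, and at 4.58, 3.74 and 3.74 CPM in sgBACH1_siCTRL cells and 23.8, 28.6 and 25.9 CPM in sgCTRL_siCTRL cells, with an interaction of 2.55 ± 0.31 (adjusted p = 0.000101). Hsd17b14, a hydroxysteroid dehydrogenase gene, had an interaction of 1.55 ± 0.18, and the interferon-induced Ifitm1 and Ifitm3 had interactions of 1.58 ± 0.22 and 1.45 ± 0.24, with counts that are uncertain because of similar copies (adjusted p = 5.98e-05, 0.000294 and 0.00170). Toward lower values, beside Ero1l, stood Jag2 (-1.14 ± 0.16), the syndecan gene Sdc3 (-1.13 ± 0.15) and Cd109 (-1.12 ± 0.21), with adjusted p of 0.000435, 0.000233 and 0.00429. These 3 rose in the knockout under either siRNA, by 3.91 ± 0.097, 2.26 ± 0.11 and 0.86 ± 0.15 under FEM1B siRNA and by 5.05 ± 0.11, 3.39 ± 0.11 and 1.98 ± 0.15 under control siRNA. For Cd109 the value under FEM1B siRNA was 0.56 with the median of its chromosome removed. Further downward interactions of Pgf (-1.33 ± 0.34), Tnfrsf11b (-1.16 ± 0.30), Selenbp1 (-1.09 ± 0.29) and Atp7b (-1.08 ± 0.28) were no longer called without sgBACH1_siFEM1B replicate 1 or 3, sgBACH1_siCTRL replicate 1 or 3, sgCTRL_siCTRL replicate 3 or sgCTRL_siFEM1B replicate 2, among others.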

How the data were processed

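The authors deposited whole-number read counts per gene symbol, not normalized, from TruSeq Stranded mRNA libraries of total RNA, per the labels' protocols. The submitters' processing notes list the mouse build mm10, Subread, SAMtools 1.9, featureCounts 1.6.4 and DESeq2 1.26.0, without roles; neither the annotation nor the strand setting is given in the sources used here, which matters for overlapping genes and near-identical copies. All 12 columns matched a label. Total counts were 16539168 to 22196999 per library, so that 1 count was worth 0.0446 to 0.0604 CPM.

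From these counts, genes with at least 10 counts in at least 3 libraries were kept, and edgeR 4.0.16 (R 4.3.3; TMM factors, quasi-likelihood test, 8 residual degrees of freedom) was fitted with 1 mean per group. P-values were two-sided and adjusted by Benjamini-Hochberg over 13312 genes, and calls were made under 0.05 with no fold minimum. Each ± after a log2 fold change is a standard error, the fold change over the square root of the F statistic. CPM are scaled by TMM. A group with no counts was set at a floor of 3 counts over the group, and ratios with 1 to 3 counts have exact 95% intervals; both cover counting error only. Alternatives were DESeq2 1.42.0 and its size factors, library totals, other filters, a replicate block, the 6 FEM1B siRNA libraries alone, a test against a 2-fold change (glmTreat), removal of each chromosome's median and leaving out each library. Positions and promoters are from RefSeq on GRCm38.p6, the assembly called mm10, and 13260 tested genes had a position. The fits were tested on simulated data. No replicate pair held identical values.

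The members, the 40 pathway lists and the 7 marker lists were chosen with earlier results of these data known. Named genes were the 14 largest rises and falls under FEM1B siRNA and the 8 largest of the interaction (average log2 CPM at least 3, no overlap for the first), up to 6 genes per direction with no count in 1 group, up to 4 members per list by p, other list members by role, and a set of pathway genes. Some genes the rule names are not reported here, and which were given was decided after their values were seen.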

Additional observations from a re-analysis of the deposited data

Results flagged for a closer look

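The knockout difference under FEM1B siRNA differed from that under control siRNA, by the test of the interaction itself, for 43 of the genes named; values are the first minus the second, on the log2 scale, from edgeR's quasi-likelihood test with an adjusted p under 0.05. Opposite calls under each siRNA were those of Aldh3a1 at 1.25, Apoc2 at 2.71, Gsta4 at 0.93, Hsd17b14 at 1.55, Idh1 at 0.56 and Phgdh at 0.53. Genes called under FEM1B siRNA but not under control siRNA were Calr at -0.46, Cdkn1a at -0.97, Col7a1 at -0.51, Coq2 at 0.65, Creld2 at -0.58, Ero1l at -1.23, Fth1 at 0.65, Mgst2 at 0.60, Pgk1 at -0.62 and Pgls at 0.45. Genes called under control siRNA but not under FEM1B siRNA were Cldn2 at 2.55, H2-K1 at -0.76, Hspa5 at -0.83 and Nfkbia at -0.52. The knockout moved the same way under either siRNA and further under FEM1B siRNA for Ndrg1 at -0.83 and Txnip at -0.51. It moved the same way and less far under FEM1B siRNA for Aqp8 at 2.94, Cd109 at -1.12, Cdh1 at -0.38, Ifitm1 at 1.58, Ifitm3 at 1.45, Itga2 at -0.99, Jag2 at -1.14, Krt23 at -0.76, Krt7 at 0.66, Lamb3 at -0.79, Nfe2l3 at -0.67, Osgin1 at 1.11 and Sdc3 at -1.13. The interaction calls of these genes held with each of the 12 libraries left out in turn, whereas the calls under FEM1B siRNA of Aldh3a1 and Itga2 were lost, and those of H2-K1 and Hspa5 gained, without single libraries. Atp7b at -1.08 and Pgf at -1.33 were no longer called without sgBACH1_siCTRL replicate 1 or 3, sgBACH1_siFEM1B replicate 1 or 3, sgCTRL_siCTRL replicate 2 or 3 or sgCTRL_siFEM1B replicate 2. Cd68 at -0.82 was no longer called without sgBACH1_siCTRL replicate 1 or 3, sgBACH1_siFEM1B replicate 1 or 3 or sgCTRL_siCTRL replicate 1 or 3. Gclm at 0.33 was no longer called without sgBACH1_siCTRL replicate 1, 2 or 3, sgBACH1_siFEM1B replicate 3, sgCTRL_siCTRL replicate 2 or 3 or sgCTRL_siFEM1B replicate 1 or 2. Isg20 at -0.55 was no longer called without sgBACH1_siCTRL replicate 1, 2 or 3, sgBACH1_siFEM1B replicate 1 or 3, sgCTRL_siCTRL replicate 1, 2 or 3 or sgCTRL_siFEM1B replicate 2. Selenbp1 at -1.09 was no longer called without sgBACH1_siCTRL replicate 1 or 3, sgBACH1_siFEM1B replicate 1 or 3, sgCTRL_siCTRL replicate 1, 2 or 3 or sgCTRL_siFEM1B replicate 2. Tmem173 at 0.56 was no longer called without sgBACH1_siFEM1B replicate 3. Tnfrsf11b at -1.16 was no longer called without sgBACH1_siCTRL replicate 1 or 3, sgBACH1_siFEM1B replicate 1 or 3, sgCTRL_siCTRL replicate 1 or 3 or sgCTRL_siFEM1B replicate 2.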

How the results depend on the processing

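Between 6402 and 7270 genes were called under FEM1B siRNA with any 1 library left out (higher 3339 to 3740.0, lower 3059 to 3626), and the counts stayed within 1.5 times of the main ones under every alternative except the test against a 2-fold change, which called 701 (453 higher, 248 lower). Interactions were less stable: 297 to 1863 were called with 1 library left out (higher 171 to 957, lower 121 to 906), 1393 without the count filter (736 higher, 657 lower), and 1127 with DESeq2 (510.0 higher, 617 lower). The cause was not tested. Same-numbered replicates did not deviate together, with correlations of their deviations from the group means of -0.12 to 0.074 over all pairs. With the replicate block 7034 genes were called under FEM1B siRNA (3635 higher, 3399 lower), 6493 under control siRNA and 598 for the interaction (333 higher, 265 lower). Of 189 named genes followed through all 21 alternatives under FEM1B siRNA, 77 kept direction and call. These alternatives include the test against a 2-fold change, which is built to call only changes beyond 2-fold. It was the only alternative that ended the calls of Cdh1, Fth1 and Gclm, among others. Gclc (-0.051) and Psme1 (-0.037) turned direction with the median of each chromosome removed, which takes 0.29 from Gclc on chromosome 9. Precision is limited by 3 libraries per group, and at the depth of these libraries genes under about 1 CPM, such as Slc40a1, rest on few counts. The protein level of BACH1 and FEM1B was not measured in these data.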
